A study of Mus musculus with 6 samples.

Results

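The genes of the cytoplasmic ribosomal proteins were followed in the lens of mouse pups on postnatal day 1. They were chosen by name: protein-coding genes whose symbol starts with Rpl or Rps followed by a digit, together with Rplp0, Rplp1, Rplp2 and Rpsa. The kinases named Rps6k, Rps27l, Rps19bp1 and symbols ending in -ps with a number were left out. Of 27179 genes in the table, 87 were members, 54 of the large subunit and 33 of the small subunit. Of these, 77 were the canonical genes, 46 of the large and 31 of the small subunit, and the other 10 were paralogs or retrocopies. RNA was sequenced from lenses of a mixed B6/FVB strain in 3 libraries with the genotype Gclc KO and 3 with the genotype Gclc CON, called KO 1 to 3 and CON 1 to 3. Gclc codes for the catalytic part of the enzyme that limits the rate at which cells make glutathione, glutamate-cysteine ligase, and the study's title names glutathione, eye development and the transcription factor PAX6. The labels do not say how Gclc was deleted, in which cells, the sex and litters of the pups, or how many animals went into a library, so p-values measure the spread between these libraries, which may be in part technical.

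A ribosome is a machine of ribosomal RNA and ribosomal proteins that reads messenger RNA in its small subunit and joins amino acids in its large subunit. Most ribosomal proteins are needed in equal number in each ribosome, and their messenger RNAs are short and abundant in nearly all cells. Many of these messenger RNAs begin with a cytosine followed by a run of pyrimidines, the 5′ terminal oligopyrimidine (TOP) motif, through which mTORC1 controls their translation. Lens fibre cells make very large amounts of crystallins and later lose their organelles, ribosomes included.

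The first bases of members are shown because the TOP motif is the sequence feature best known to be shared by this family. RefSeq promoter sequences (GRCm38) were matched by gene identifier for 67 of the 87 members, 42 of the large and 25 of the small subunit. Each line below runs 5′ to 3′ from 10 bases before the annotated start to the first 20 bases of the transcript, with a cytosine at the start and the pyrimidines that follow it in capitals where the run was at least 5 bases long.
Rplp2: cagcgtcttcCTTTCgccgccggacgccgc
Rpl38: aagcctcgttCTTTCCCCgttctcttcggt
Rpl28: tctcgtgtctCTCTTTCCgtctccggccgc
Rps10: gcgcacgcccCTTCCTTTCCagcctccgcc
Rps15a: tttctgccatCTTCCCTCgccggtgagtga
Rps6: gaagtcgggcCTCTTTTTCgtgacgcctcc
Rps2: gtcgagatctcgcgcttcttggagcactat
Rplp0: cgggtttcgaggaccgcctggttctcctat
Rpl9: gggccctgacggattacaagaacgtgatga
Rpl7l1: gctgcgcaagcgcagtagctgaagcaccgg
On the plus strand lie Rplp2 (chr7:141447641-141447670), Rpl38 (chr11:114668570-114668599), Rpl28 (chr7:4792955-4792984), Rps2 (chr17:24720053-24720082) and Rplp0 (chr5:115559457-115559486). On the minus strand lie Rps10 (chr17:27635225-27635254), Rps15a (chr7:118116128-118116157), Rps6 (chr4:86857348-86857377), Rpl9 (chr5:65391412-65391441) and Rpl7l1 (chr17:46782637-46782666). Rplp2, Rpl38 and Rpl28 are among the large-subunit members with the largest differences described below, and Rps2 has the largest of all without such a run at its annotated start. Rplp0, Rpl9 and Rpl7l1 are among the members with the smallest differences and also have none there. Others with small differences do have the run, among them Rpl32l (log2 difference -0.27) and Rps27 (-0.49).

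A start of this kind stood at an annotated start of 15 of the 67 matched members (22.39%), against 2.87% of the 9019 other tested genes with a promoter and 3.01% of all 27025 genes with one. The absence of a run says only that these letters are not at that annotated base. The 15 members with the run, all tested, had a median log2 difference of -0.81 between KO and CON, and 8 were called lower. The 48 tested members without it had a median of -0.66, and 18 were called lower. Of the 300-base promoters, 37.31% of members held CCGGAAG on either strand, the core sequence that ETS-family factors bind, against 20.89% of the other tested genes and 9.93% of all genes. The letters AAGATGG on either strand, part of the YY1 site, were held by 14.93% of members, 8.66% of the other tested genes and 7.28% of all genes. A TATAAA box on the gene's strand was held by 10.45% of members, 5.41% of the other tested genes and 9.77% of all genes. These matches describe the letters and were not tested as binding sites.

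The depth of the libraries differed between the genotypes. CON libraries held from 20361430 to 43384443 reads in genes and KO libraries from 45842484 to 61219009, and CON 2 was the shallowest. Crystallins took 59.5% to 68.4% of the reads in CON and 40.5% to 47.5% in KO. Normalised reads (reads divided by the library's size factor) of Gclc were 178, 283 and 173 in the CON libraries and 17.9, 72.1 and 58.1 in the KO libraries, each in the order 1 to 3 as in all values that follow. Every KO library lay below every CON library for Gclc, with a log2 difference of -1.01 (SE 0.28) and an adjusted p of 0.0387 by limma. That call missed the threshold when CON 2, KO 1, KO 2 or KO 3 was left out (adjusted p up to 0.130 by limma). Markers of lens fibres were abundant in all libraries, as the labelled tissue implies, and 14 of 15 were lower in KO: their summed level was 1047432 to 1276505 normalised reads in CON and 404603 to 561054 in KO. Markers of macrophages went the other way, with 11 of 15 higher in KO and a sum of 1775 to 3121 in CON and 6756 to 20668 in KO. Red cell markers summed to 5809 to 9032 in CON and 3085 to 4742 in KO, with 1 of 5 tested genes called lower. Retinal markers summed to 5437 to 8192 in CON and 11485 to 13299 in KO, with 3 of 11 tested genes called higher. Pigment cell markers summed to 8557 to 10997 in CON and 11772 to 18543 in KO, with 1 of 6 called higher. Of 9 tested lens epithelium markers, 3 were called higher and 3 lower. Of 4 tested mesenchyme markers, 1 was called higher and 1 lower. Of 16 markers of S phase and mitosis, 2 were called higher, and of 10 endothelium markers none was called. Over all genes tested, 4.39% were called lower and 6.91% higher. Whether these shifts in cell type markers have a part in the ribosomal protein values was not tested. In RNA of whole lenses, fewer cells of a type and less RNA per cell cannot be told apart.

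Ribosomal protein genes together made up a slightly larger share of all reads in KO than in CON, and a smaller share of the reads outside crystallins. Of all reads, members took 1.99%, 2.06% and 1.94% in CON and 2.15%, 2.33% and 2.21% in KO, a mean of 2.0% ± 0.0615 (SD, n = 3) against 2.23% ± 0.0924 (SD, n = 3). The ranges did not overlap, and every KO library was higher. Of the reads outside crystallins, members took 4.92%, 6.53% and 5.73% in CON and 4.09%, 3.91% and 4.14% in KO, a mean of 5.73% ± 0.804 against 4.05% ± 0.117. Here every KO library was lower, and the CON libraries spread much more widely than the KO libraries. Per size factor, which sets the typical gene equal between libraries, members summed to 912093, 1322916 and 1212230 normalised reads in CON and 741451, 641612 and 713863 in KO. No p-value is given for these sums because the members were chosen with results of these data known.

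**Figure D1:**
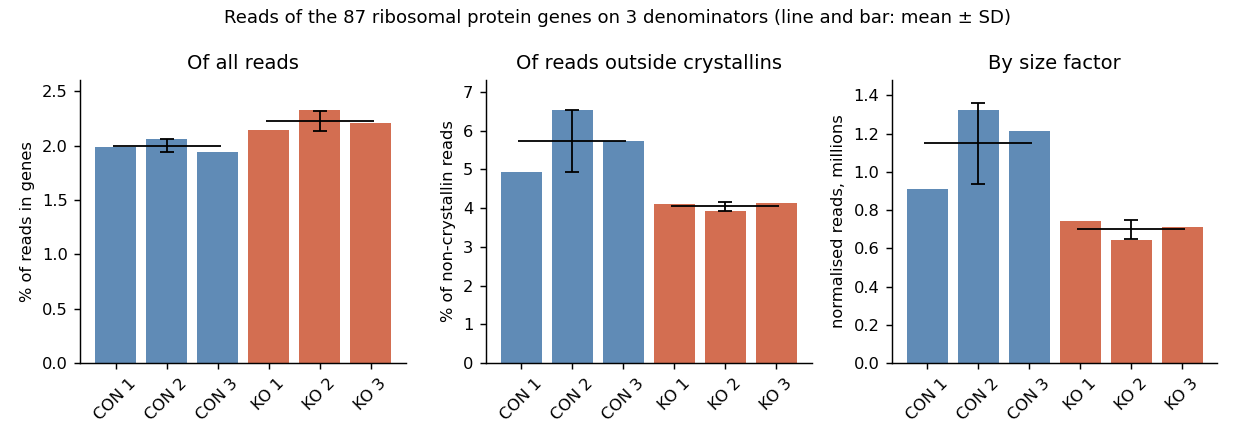
Reads of the 87 members in each of the 6 libraries as a percentage of all reads in genes (left), as a percentage of reads outside crystallins (middle) and as normalised reads (right), with the mean ± SD of each group of 3 libraries in black. KO libraries were higher on the left, at 2.15% to 2.33% against 1.94% to 2.06%, and lower in the other panels, so the direction depends on the denominator.

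The values as deposited are scaled by size factors, so a log2 difference in them compares a gene with the typical gene of the same lens. On that scale 24 of the 50 tested large-subunit members were lower in KO, none was higher and 26 were not called, whereas with libraries scaled to their total reads none was lower and 3 were higher. Of the 33 tested small-subunit members, 14 were lower, none was higher and 19 were not called, whereas with total reads none was lower and 1 was higher. Over all 11468 genes tested, 4.39% were called lower and 6.91% higher at an adjusted p under 0.05 by limma, against 48% lower of the large-subunit members and 42.42% lower of the small-subunit members. At an unadjusted p under 0.05 by limma, 42 large-subunit and 27 small-subunit members passed, beside 3024 of all 11468 genes tested. With total reads, 0.741% of all genes were called lower and 28.9% higher. With libraries scaled to the reads outside crystallins, 13 large-subunit and 10 small-subunit members were lower, against 2.55% of all genes.

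The difference was similar in size in both subunits. The median log2 difference (KO minus CON) was -0.68 over large-subunit members and -0.69 over small-subunit members, against 0.03 over all genes tested. Under total reads these medians were 0.17 and 0.16, against 0.86 over all genes. Members thus lay below the median gene by about the same distance under both scalings while their sign changed. A change of library scaling moves all genes by nearly the same amount, so this distance is kept by construction and is no separate result. Of the tested members, 49 of 50 in the large subunit and 32 of 33 in the small subunit had a difference below 0 in the values as deposited, and 24 of all 83 had one under total reads. In 69 of the 83, every KO library lay below every CON library in the values as deposited, as it did in 14.1% of all genes tested. No tested member had every KO library above every CON library in those values, whereas 1935 of all 11468 genes tested had. The ratio of small-subunit to large-subunit reads was 0.657, 0.675 and 0.632 in CON and 0.614, 0.628 and 0.642 in KO, and the ranges overlapped.

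**Figure D2:**
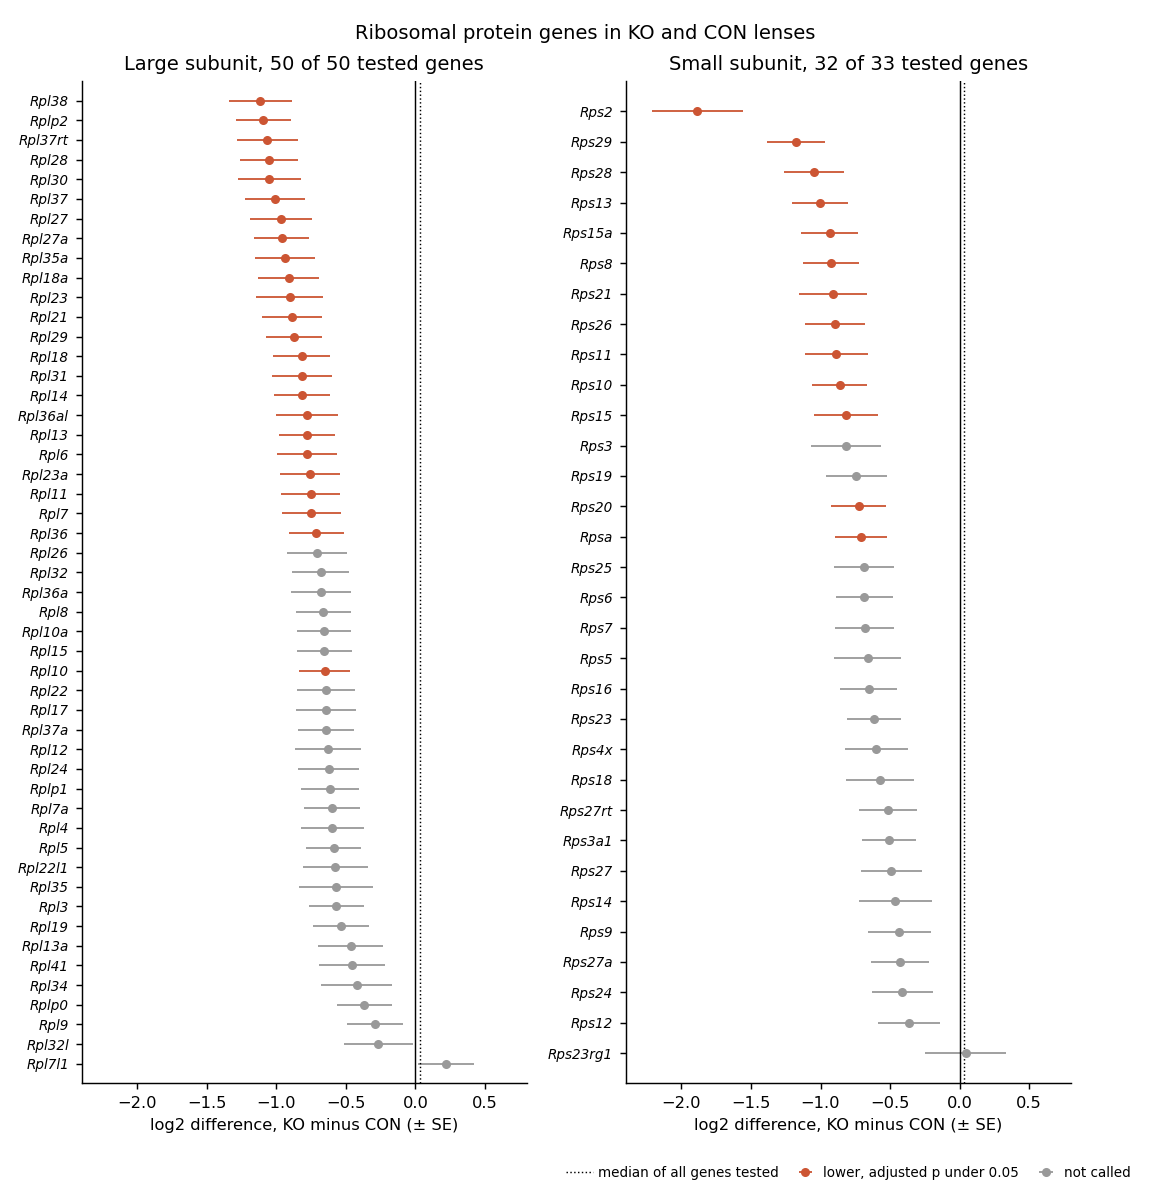
Log2 difference (KO minus CON, values as deposited) of the tested members, 1 of the small subunit not drawn, with standard errors, large subunit on the left and small subunit on the right, in red where the gene was called lower. All drawn but Rpl7l1 and Rps23rg1 lie below 0 on this scale, around a median of -0.68 and -0.69, whereas scaling to total reads moves these medians to 0.17 and 0.16.

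**Figure D3:**
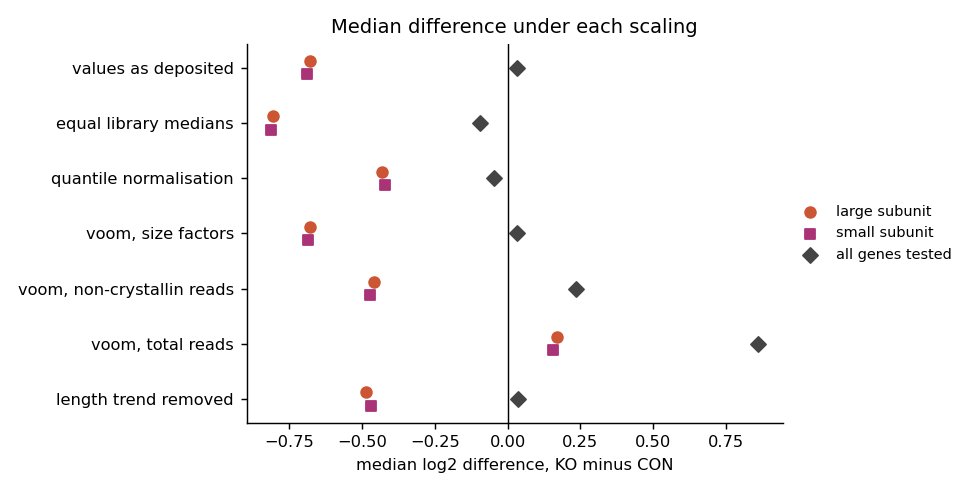
Median log2 difference (KO minus CON) of large-subunit members, small-subunit members and all tested genes under each scaling of the libraries. The members lie to the left of all genes in every row shown. They lie to the right of 0 only with total reads, at 0.17 and 0.16. Rows that change only the scaling of whole libraries nearly keep the distance to all genes by construction.

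How many members were called depended on single libraries. CON 1 had the lowest CON value for 79 of the 83 tested members, and CON 2 had the highest for 65. Among KO libraries, KO 2 was lowest for 56 members and KO 1 highest for 57. The median large-subunit member lay at -0.29, 0.20 and 0.10 in CON and at -0.59, -0.83 and -0.69 in KO, in log2 units from the mean of the CON libraries. CON 2, the shallowest library, has a lane suffix in its name that no other library has. The names of KO 2 and KO 3 follow another style than those of the remaining libraries. KO 1, named as the CON libraries are, lay at -0.59 for the median large-subunit and -0.63 for the median small-subunit member, the nearest to CON of the KO libraries. Calls of lower members rose from 38 to 73 without CON 1. Leaving out CON 2 gave 10 calls and CON 3 gave 19. Among KO libraries, 25 calls were left when KO 1 was omitted, 4 when KO 2 was and 9 when KO 3 was. Calls over all genes tested moved in the same fits. With every library kept 4.39% were lower, and 7.5%, 2.4% and 3.9% without CON 1, CON 2 and CON 3. These shares were 2.8%, 1.5% and 2.1% without KO 1, KO 2 and KO 3. Among the 4 members called lower whichever library was left out were Rplp2, Rps2 and Rps29. The medians stayed below 0 in all of these fits, between -0.85 and -0.60 for the large subunit and between -0.84 and -0.60 for the small subunit.

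Members moved together from library to library. Over the 6 libraries, the correlation of a member with the mean of the other members had a median of 0.979, and it was above 0.9 for 70 of 83 members. These libraries share 2 genotypes and 1 set of size factors, so the coefficients describe a common pattern only. The lowest were those of Rps23rg1 (-0.43), Rpl7l1 (-0.40), Rps27a (0.67), Rpl34 (0.68), Rps2 (0.72), Rps12 (0.73) and Rpl41 (0.79).

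Among large-subunit members, Rpl38 and the stalk protein gene Rplp2 had the largest differences. Rpl38, known for its role in translating Hox messenger RNAs in the mouse embryo, had 7915, 12296 and 10441 normalised reads in CON and 5498, 3844 and 4454 in KO. The highest KO library lay below the lowest CON library, and the log2 difference was -1.11 (SE 0.22, adjusted p = 0.00906 by limma). Leaving out KO 2 took its adjusted p to 0.0591 by limma. Rplp2, one of the acidic proteins of the stalk that recruits translation factors, had 8321, 11393 and 9303 in CON and 4668, 4083 and 4467 in KO. The groups did not overlap, the log2 difference was -1.09 (SE 0.20, adjusted p = 0.00541 by limma), and the adjusted p stayed at or under 0.0387 whichever library was left out. Rpl28 had 5613, 7880 and 7441 in CON and 3716, 2915 and 3139 in KO, a log2 difference of -1.05 (adjusted p = 0.00838 by limma, 0.0572 without KO 2). Rpl37rt, by its name a retrotransposed copy of Rpl37, had a mean of 1696 ± 94.2 (SD, n = 3) in CON and 731 ± 141 (SD, n = 3) in KO. Its log2 difference of -1.06 (adjusted p = 0.0099 by limma) stood beside -1.01 for Rpl37 itself. The call of Rpl37rt was lost without KO 2 (adjusted p = 0.0782 by limma), with the length trend removed (0.0695) and with total reads (0.198). Reads of copies this alike could have been assigned to either gene.

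The other stalk proteins differed less than Rplp2. Rplp1, the partner of Rplp2 in the stalk, had 7971, 11094 and 11090 normalised reads in CON and 7375, 5806 and 6189 in KO. The groups did not overlap, but CON 1 and KO 1 were close, and the log2 difference of -0.62 was not called (adjusted p = 0.0817 by limma). Rplp0, which anchors the stalk and is widely used as a reference gene, had 27566, 36878 and 34640 in CON and 24678, 26568 and 24973 in KO. Its log2 difference was -0.37 (adjusted p = 0.274 by limma) in the values as deposited and 0.48 (adjusted p = 0.030 by limma) with total reads.

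The 5S particle proteins Rpl5 and Rpl11, which join 5S ribosomal RNA before they enter the large subunit and can bind MDM2 when free, lay close together. Rpl11 had 12088, 18162 and 16306 normalised reads in CON and 9460, 8184 and 9419 in KO, a log2 difference of -0.75 (adjusted p = 0.0393 by limma) that was 0.10 with total reads. Rpl5 had 17357, 22618 and 23231 in CON and 14144, 12762 and 14711 in KO, a log2 difference of -0.59 (adjusted p = 0.0815 by limma). Rpl11 passed the threshold and Rpl5 did not, but the values of both groups were apart for both genes and the difference between them was not tested. The call of Rpl11 was kept in 1 of the 6 fits that left out a library, the one without CON 1.

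Near the peptidyl transferase centre, Rpl10, whose entry is among the last steps of large-subunit assembly, had 11019, 13246 and 13055 normalised reads in CON and 8074, 7700 and 7694 in KO. Its log2 difference of -0.65 (adjusted p = 0.0428 by limma) became 0.18 with total reads, and its call was kept only without CON 1 among the 6 fits that left out a library. Rpl3, which reaches into the same centre, had a mean of 27258 ± 3817 (SD, n = 3) in CON and 18245 ± 1393 (SD, n = 3) in KO, with an adjusted p of 0.0902 by limma. Rpl22, an RNA-binding protein that is dispensable for translation in general, had a log2 difference of -0.64 (adjusted p = 0.0722 by limma). Rpl13a, another common reference gene, had 8458, 14898 and 11930 in CON and 7606, 7513 and 9811 in KO, and the groups overlapped. Rpl41 encodes a peptide so short that it is among the smallest known proteins, and had the highest level per length of the family in CON, 77278 normalised reads per kilobase. Its log2 difference of -0.46 was not called (adjusted p = 0.251 by limma), and KO 3 lay above CON 1.

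Rpl9 was the canonical large-subunit member with the smallest difference. Its normalised reads were 12876, 17444 and 17223 in CON and 11953, 12915 and 13575 in KO. KO 2 and KO 3 lay above CON 1, so the groups overlapped. Its log2 difference was -0.29 (adjusted p = 0.389 by limma) in the values as deposited and 0.55 (adjusted p = 0.0241 by limma) with total reads.

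In the small subunit, Rps2 had the largest difference of the family. Rps2 encodes a protein at the channel through which messenger RNA enters. Its normalised reads were 15221, 10902 and 5598 in CON and 2896, 2972 and 1837 in KO. The CON libraries spread widely, with CON 1 highest, where most members had their lowest CON value. The groups did not overlap, and the log2 difference was -1.89 (SE 0.33, adjusted p = 0.00447 by limma), or -1.13 with total reads (adjusted p = 0.0871 by limma). The adjusted p in the values as deposited stayed at or under 0.0269 whichever library was left out. Against Rpsa, its neighbour in the ribosome, Rps2 had a read ratio of 1.24, 0.728 and 0.426 in CON and 0.377, 0.355 and 0.219 in KO.

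Rps29, among the genes mutated in Diamond-Blackfan anaemia, was lower as well. Rps29 had 11075, 15575 and 11841 normalised reads in CON and 6334, 5343 and 4965 in KO, a log2 difference of -1.18 (SE 0.21, adjusted p = 0.0048 by limma). Its lowest CON library stood well above its highest KO library, and its adjusted p stayed at or under 0.0299 by limma whichever library was left out. Rps28 and Rps13 followed with log2 differences of -1.05 (adjusted p = 0.00992 by limma) and -1.0 (adjusted p = 0.00869 by limma). Both missed the threshold without KO 2 (adjusted p of 0.0610 and 0.0635 by limma), and Rps28 also without KO 3.

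**Figure D4:**
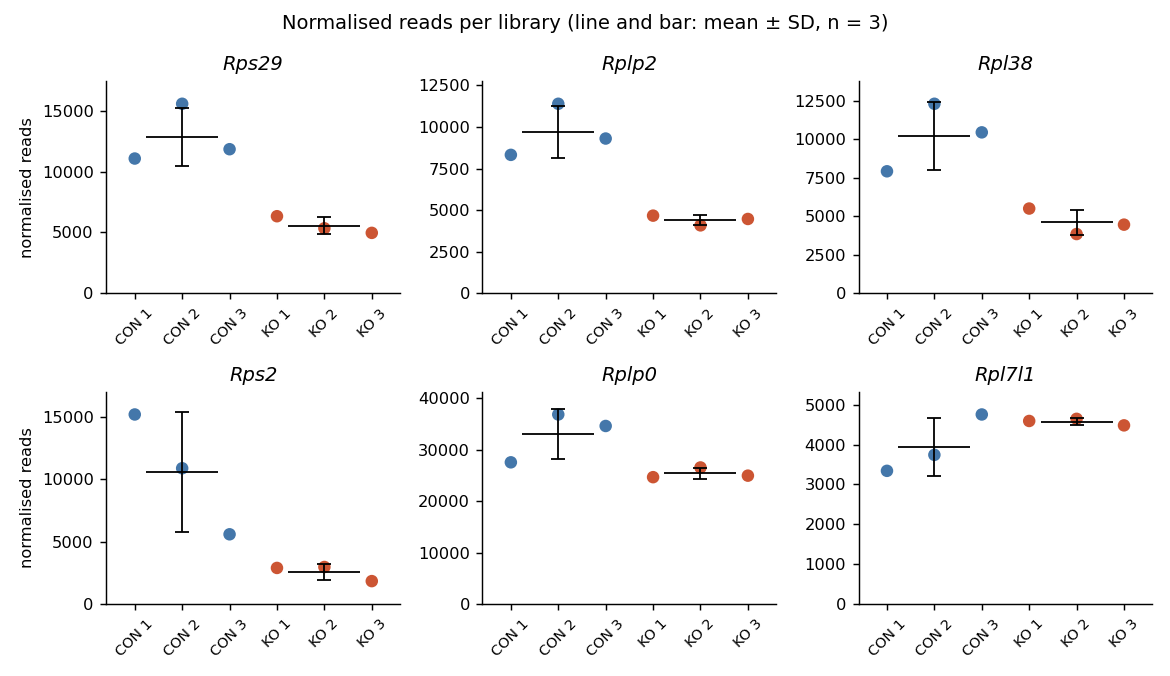
Normalised reads of 6 members in each library, CON in blue and KO in red, with the mean ± SD of 3 libraries. Rps29, Rplp2, Rpl38 and Rps2 show groups that do not overlap, Rplp0 groups that lie close, and Rpl7l1 a KO group inside the range of CON at the top.

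Several other small-subunit proteins with known roles had differences from near the small-subunit median, -0.69, to about its lower quartile, -0.90. Rps6, the target of the S6 kinases, had 17256, 23421 and 24228 normalised reads in CON and 14781, 12983 and 12100 in KO, a log2 difference of -0.68 (adjusted p = 0.0550 by limma). Rps3, which lines the entry channel, had a log2 difference of -0.82 (adjusted p = 0.0608 by limma), and Rps19, the gene most often mutated in Diamond-Blackfan anaemia, had one of -0.74 that just missed the threshold. Rps26, at the exit of the messenger RNA channel, had 17543, 25356 and 23339 in CON and 13728, 10731 and 10706 in KO, a log2 difference of -0.90 (adjusted p = 0.0202 by limma). Rps20 had a log2 difference of -0.73 (adjusted p = 0.0367 by limma), and Rpsa one of -0.71 (adjusted p = 0.0313 by limma). With total reads those of Rps20 and Rpsa were 0.11 and 0.13. The calls of Rps20 and Rpsa were kept only without CON 1, and that of Rps26 only without CON 1 or KO 1, among the 6 fits that left out a library.

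The small-subunit members nearest to 0 were Rps12, Rps24, Rps27a and the retrogene Rps23rg1. Rps12 had 1139, 1253 and 1246 normalised reads in CON and 760, 834 and 1156 in KO, where KO 3 stood apart from the other KO libraries and lay above CON 1. Rps27a is made as a fusion with ubiquitin and had 13798, 13674 and 13276 in CON and 8367, 9446 and 12806 in KO. There too KO 3 was highest, and the log2 difference of -0.43 was not called (adjusted p = 0.216 by limma). Rps24 had a log2 difference of -0.41 (adjusted p = 0.265 by limma) in the values as deposited and 0.45 (adjusted p = 0.0347 by limma) with total reads. Rps14 had 26940, 53589 and 42100 in CON and 25120, 27724 and 33253 in KO, and the groups overlapped. Rps27 had groups that overlapped as well and a log2 difference of -0.49 (adjusted p = 0.175 by limma).

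Paralogs of ribosomal proteins did not all follow the canonical genes. Rpl7l1, a paralog of Rpl7 that acts in assembly of the large subunit, had 3341, 3742 and 4755 normalised reads in CON and 4592, 4646 and 4482 in KO. The KO libraries lay inside the CON range, and the log2 difference of 0.22 was not called (adjusted p = 0.537 by limma), while with total reads it was 1.05 (adjusted p = 0.00640 by limma). Relative to Rpl7, which was lower at a log2 difference of -0.75, Rpl7l1 had a read ratio of 0.126, 0.101 and 0.122 in CON and 0.209, 0.251 and 0.227 in KO. These ratios do not depend on the scaling of libraries, and every KO library was above every CON library. Rpl22l1 to Rpl22 had a mean ratio of 1.40 ± 0.160 (SD, n = 3) in CON and 1.49 ± 0.275 (SD, n = 3) in KO, and Rpl36al to Rpl36a one of 0.680 ± 0.0542 in CON and 0.626 ± 0.0400 in KO, both with ranges that overlapped. Rps27l, left out by the rule as a paralog of Rps27, had a ratio to Rps27 of 0.318 ± 0.0337 in CON and 0.441 ± 0.0475 in KO, without overlap. Rps23rg1, a retrogene of Rps23, had 186, 50.4 and 66.4 normalised reads in CON and 88.1, 89.0 and 116 in KO.

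The 4 members under the filter on low values were Rpl39, Rpl39l, Rpl3l and Rpl10l. Rpl39 had 25.3, 53.5 and 87 normalised reads in CON and 44.3, 9.62 and 41.2 in KO, far below the other canonical genes. Rpl39l, a paralog known from the testis, had no reads in CON and 45 reads over the 3 KO libraries, which was at least 5.51-fold higher in KO when 3 reads over the CON group were taken as the floor. Such intervals and floors cover counting error only, since reads without molecular identifiers are not independent molecules. Rpl3l, known from striated muscle, and Rpl10l, known from the testis, had no reads in any library, which allows up to 9.44 normalised reads in CON 2, the shallowest.

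Ribosomal protein genes had levels per length far above that of the median gene. Canonical large-subunit members had a median of 16669 normalised reads per kilobase in CON and 10035 in KO, and small-subunit members 15628 and 9130. The median of all tested genes was 151 in CON and 169 in KO. The canonical transcripts were short, with a median length of 833 bases in the large and 791 bases in the small subunit against 2920 bases over all tested genes. Among tested genes outside the family, transcripts of up to 1 kilobase had a median log2 difference of -0.28, and 6.63% of these 709 genes were called lower. That median was -0.06 for 1 to 2 kilobases, 0.06 for 2 to 4 kilobases and 0.13 above 4 kilobases. With the trend over length removed from the values, the median was -0.49 over large-subunit and -0.47 over small-subunit members. In that fit 24 and 16 members were called lower, against 5.62% of all genes tested. Across the 76 tested canonical members, the log2 difference had a Pearson correlation of 0.05 with length and of 0.11 with the CON level, values across genes that share libraries and are given as a description.

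Processed pseudogenes of the family can take reads from their parents. By symbol or annotation 35 genes of the table were counted as pseudogenes of the family, and 29 had reads. Their summed reads came to 0.683% to 0.774% of the size of the members' sum in CON and 0.692% to 0.735% in KO. Rpl34-ps1, annotated as protein-coding, and Rps4l had CON means of 2453 and 1782 normalised reads. The mean sum in CON was 8505. All 11 tested had differences below 0 in the values as deposited, with a median of -0.51. By limma none was called, and 5 had an unadjusted p under 0.05, as 3024 of all 11468 genes tested had. Of all genes, 4.39% were called lower and 6.91% higher.

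Genes around the ribosome were read from lists. Fau and Rack1, which give proteins of the mature ribosome under other symbols, had log2 differences of -0.62 and -0.75. Neither was called (adjusted p of 0.106 and 0.0521 by limma), although both had an unadjusted p under 0.05 and every KO library below every CON library. Translation factors were listed with other proteins linked to translation, among them Npm1, Ncl and Nap1l1. Of these 40 tested genes, 5 were lower (12.5%, against 4.39% of all genes) and none higher, with a median log2 difference of -0.49. Among them, Eif5b, the GTPase that joins the subunits, had 54513, 47402 and 71345 normalised reads in CON and 22385, 13509 and 21640 in KO, a log2 difference of -1.60 (adjusted p = 0.00258 by limma) that kept its call with any library left out. Eif2s2, a subunit of the factor that brings the initiator tRNA, had a log2 difference of -0.84 (adjusted p = 0.0284 by limma). Its adjusted p by limma went up to 0.172 with a library left out. With total reads its log2 difference was -0.015 (adjusted p = 0.934 by limma). Of 80 mitochondrial ribosomal protein genes tested, 4 were lower (5%, near the 4.39% of all genes) and none higher, with a median of -0.32. Mrpl23 and Mrps26 had log2 differences of -1.02 and -0.89, with adjusted p-values of 0.0193 and 0.0155 by limma. These p-values went up to 0.106 and 0.115 with KO 2 left out. With total reads the log2 differences were -0.22 and -0.12 (adjusted p of 0.336 and 0.629 by limma).

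Assembly factors and genes of RNA polymerase I had medians nearer to that of all genes than the ribosomal protein genes had. Of 40 tested assembly factors of the large subunit, limma called none (1 at an unadjusted p under 0.05), with a median log2 difference of -0.12. Of 49 factors of the small subunit it called none (9 at an unadjusted p under 0.05), with a median of 0.03. Of 15 genes of RNA polymerase I and its factors it called none (4 at an unadjusted p under 0.05), with a median of -0.00. Among all 11468 genes tested, limma called 4.39% lower and 6.91% higher, and 3024 had an unadjusted p under 0.05. The 11 chaperones and escorts of single ribosomal proteins had a median of -0.42, and 1 of them, Nap1l1, was called lower. Its log2 difference was -0.72 (adjusted p = 0.0342 by limma), and 0.12 with total reads. Nap1l1 was also 1 of the 5 lower genes in the list with the translation factors. With any library but CON 1 left out, Nap1l1 missed the threshold.

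**Figure D5:**
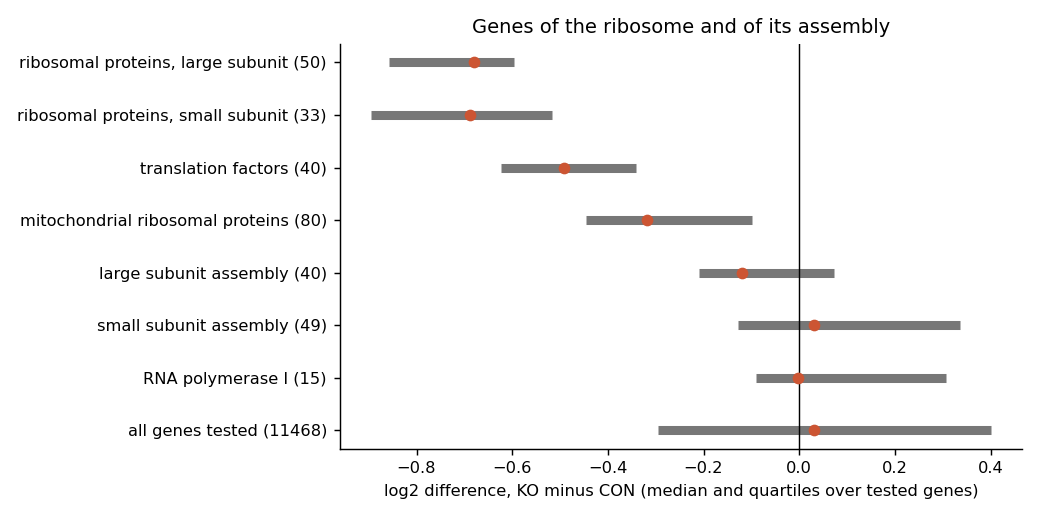
Median (red) and quartiles (grey bar) of the log2 difference, KO minus CON in the values as deposited, over tested genes of the lists drawn. The number of genes stands in parentheses, and the translation factors include other proteins linked to translation. Of the lists drawn, the ribosomal protein genes lie furthest left at -0.68 and -0.69 on this scale (0.17 and 0.16 with total reads), and the assembly factors and RNA polymerase I lie near the median of all genes, 0.03.

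Regulators of ribosomal protein synthesis were mixed. Of 25 tested genes of mTORC1, its regulators and its effectors on translation, 4 were lower (16%, against 4.39% of all genes) and 1 was higher (4%, against 6.91%). Mtor, the kinase itself, had 963, 1401 and 1186 normalised reads in CON and 602, 554 and 500 in KO, a log2 difference of -0.90 (adjusted p = 0.0262 by limma) that was called in 1 of the 6 fits leaving out a library. Sesn1, a leucine-sensing inhibitor of mTORC1, had 3756, 2694 and 3378 in CON and 1397, 926 and 1207 in KO (log2 difference -1.36, adjusted p = 0.00347 by limma). Castor1, an arginine sensor that inhibits mTORC1, was higher, at 83.4, 44.1 and 137 in CON and 302, 275 and 357 in KO (log2 difference 1.05, adjusted p = 0.0289 by limma), and was called in 2 of the 6 fits. The list of the MYC family and its partners, antagonists of Myc among them, held 9 tested genes. Myc, which activates ribosomal protein and assembly genes, was higher, and Mxd1, an antagonist of Myc, was lower. That was 11.1% of the list in each direction, against 6.91% higher and 4.39% lower of all genes. Myc had 78.1, 104 and 0 normalised reads in CON and 773, 659 and 552 in KO (log2 difference 2.27, adjusted p = 0.00313 by limma). Mxd1 had 6164, 4642 and 4024 in CON and 1813, 1703 and 1906 in KO (log2 difference -1.35, adjusted p = 0.00263 by limma). The calls of Sesn1, Myc and Mxd1 were kept whichever library was left out. With total reads, Sesn1 (adjusted p = 0.0709 by limma), Mxd1 (0.118) and Mtor (0.453) missed the threshold, and the log2 difference of Mtor was -0.23. Castor1 missed it in several settings, among them voom with size factors (adjusted p = 0.0891 by limma) and with reads outside crystallins (0.0694). Myc missed it with voom and size factors (0.0532), voom and reads outside crystallins (0.0559) and log2 of normalised reads plus 1 (0.0656).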

How the data were processed

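The deposited table holds log2 values that the authors obtained by variance stabilisation in DESeq2 (version given as 2.11.0.6). Per the submitters' processing notes, Trimmomatic, HISAT2 2.1.0, featureCounts 1.6.4 and mm9 were used. Per the labels' protocols, total RNA went into a low-input NEBNext kit, and use of strand in counting is not given in the sources used here. The transformation was inverted to reads, and 100.0% of values came within 0.1 of a whole read. Size factors were 0.318 to 0.947 in CON and 1.66 to 1.89 in KO. Identifiers were matched to RefSeq symbols (25275 matched, 1904 not), and lengths are medians of principal GENCODE M21 transcripts.

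The deposited log2 values of KO and CON were compared in limma 3.58.1 under R 4.3.3 (lmFit, eBayes with a trend, two-sided, tested on simulated data). The test took genes whose mean exceeded the lowest value, 6.504, by 1 unit or more. A gene was called where its p, adjusted by Benjamini-Hochberg over all genes tested, was under 0.05. Log2 differences understate the change of low genes. Alternatives were other filters, scalings (voom on recovered reads included), log2 of normalised reads plus 1, no trend, a replicate block, removal of a length trend and each library left out.

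Members and lists were chosen with earlier results of these data known. Genes were named by role, as the 4 members with the highest and lowest differences and smallest p in each subunit, as paralogs, by level, when untested, and as up to 2 called genes per list and direction. Genes shown with sequences and those with the lowest correlations were added to these. Protein sequences were not used here. Some genes of the lists are counted but not reported here by name.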

Additional observations from a re-analysis of the deposited data

How the results depend on the processing

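Scaling decided the direction. With voom and total reads, the medians were 0.17 (large subunit) and 0.16 (small subunit), 3 and 1 members were higher and 0 and 0 lower, and of all genes 28.9% (3314) were higher and 0.741% (85) lower. Under it, 24 of the 83 tested members had a difference below 0, against 81 in the values as deposited. Genes whose difference turned sign included Rpl11 (0.10), Rplp0 (0.48), Rpl10 (0.18), Rpsa (0.13), Rpl9 (0.55), Rps24 (0.45), Rps20 (0.11), Rpl36al (0.049) and Nap1l1 (0.12). With reads outside crystallins, medians were -0.46 and -0.47, 13 large-subunit members were lower, and 2.55% (292) of all genes were lower. Quantile normalisation gave medians of -0.43 and -0.42 and 14 lower large-subunit members, against 5.28% of all genes. Equal library medians turned 793 higher and 504 lower of all genes into 643 higher and 717 lower. Removing the length trend gave a small-subunit median of -0.47. Without a variance trend, 12 and 9 members were lower, against 3.56% of all genes. A filter of 3 units left 340 of all genes higher, 6.79% of the fewer genes tested, and no filter left 360 lower, 1.87% of the more genes tested. Voom with size factors called 3.67% (421) higher.

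With each library left out in turn, lower members ranged from 1 to 44 (large subunit) and from 3 to 29 (small subunit), and of all genes from 3.11% to 9.46% were higher and from 1.53% to 7.48% lower. A replicate block gave 7 and 5 lower members and 2.69% (309) lower genes. Libraries with equal numbers had residual correlations of -0.364, -0.128 and -0.14, and those with unequal numbers from -0.228 to 0.329. With 3 libraries per group these values cannot decide whether libraries with equal numbers share a litter or batch, and the labels do not say. Where these values moved, the cause was not tested beyond what each setting changes itself. The filter acts on mean values scaled by size factor, and the members under it were low on that scale. Whether depth had a part in this was not tested. CON 2, with 20361430 reads and the smallest size factor, had the highest floor for genes without reads.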

Other observations

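The 9 tested genes with an Rps symbol that the rule leaves out are kinases, the S19 binding protein and the paralog Rps27l. Their log2 differences had a median of 0.21 (values as deposited). Limma called none of them (0 at an unadjusted p under 0.05). Of all 11468 genes tested, it called 4.39% lower and 6.91% higher, and 3024 had such a p. Rps6kb1, the kinase of the protein made from Rps6, had 2293, 2373 and 2592 normalised reads in CON and 2734, 1870 and 1836 in KO, and the groups overlapped. Rps4l, a transcribed pseudogene, had a mean of 1782 ± 493 (SD, n = 3) in CON and 1310 ± 141 (SD, n = 3) in KO and was not called (adjusted p = 0.338 by limma).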
